A study of Mus musculus with 3 samples.

Results

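Early transposons (ETn) are endogenous retroviruses of the mouse genome, and here they were followed as the repeat names that begin with ETnERV, MMETn or RLTRETN. The rule found 5 of the 18484 repeat names listed in the files. Of these, 4 are internal names (ETnERV-int, ETnERV2-int, ETnERV3-int and MMETn-int) and 1 is a long terminal repeat (LTR) name, RLTRETN_Mm. No name contains MusD, and how the annotation divides MusD copies among these names is not stated, so MusD elements are not separated from ETn below.

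The data are RNA immunoprecipitation sequencing counts, that is, reads from RNA that came down with an antibody from the hippocampus of C57BL/6-background mice at 9 months of age. The series has 3 libraries with 1 library per group: RNA pulled down with ZBP1 from PS19 animals (called ZBP1-PS19 below), RNA pulled down as Z-form nucleic acid (ZNA) from PS19 animals (ZNA-PS19), and RNA pulled down as ZNA from wild-type (WT) animals (ZNA-WT). PS19 mice carry a mutant human tau transgene under the mouse prion protein promoter and develop tau pathology, and ZBP1 is a host sensor of left-handed nucleic acid. Whether a library pools mice is not given in the labels, and no input, control-antibody or WT ZBP1 library was used here, so a level is the amount recovered and not an enrichment.

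ETn and MusD elements belong to the class II (ERVK-like) retroviruses. ETn elements carry no working retroviral genes and are copied by proteins that the related MusD elements encode; MusD elements in turn lack an envelope gene. Transcription of such an element begins and ends in its LTRs, which flank the internal part, and lone LTRs also remain in the genome where the internal part was lost by recombination. These families are largely kept silent by DNA methylation and by histone methylation through SETDB1, and new ETn insertions are a known source of mouse mutations. Which of these acts in adult hippocampus was not measured here. A count per repeat name adds up all copies, so no copy, chromosome position, strand or neighbouring gene can be given. Lengths of the names were not available, so levels of different names are not compared with each other.

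Repeat names took 1425383 reads in the ZBP1-PS19 library, 2918985 in the ZNA-PS19 library and 3234786 in the ZNA-WT library. Because the ribosomal names LSU-rRNA_Hsa and SSU-rRNA_Hsa took most reads, only 74474, 308613 and 145372 reads lay outside rRNA, which is 5.22%, 10.6% and 4.49% of these libraries. Each ETn value is therefore given on 2 scales: CPM, which scales counts to the library total, and RPM outside rRNA, which scales them in the same way to the reads outside rRNA. The tissue label could not be checked with gene markers, since the files list repeats; BC1_Mm, the name of a neuronal small RNA, had 33, 146 and 77 reads. With 1 library per group no value has a replicate error. Intervals are 95% exact intervals and cover counting error only; reads without molecular identifiers are not independent molecules, and 2 libraries of the same kind could differ by more.

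ETn names together held 124 reads in the ZBP1-PS19 library, 696 in the ZNA-PS19 library and 291 in the ZNA-WT library. Per library total, these were 87.0 CPM (72.4 to 103.7), 238 CPM (221 to 257) and 90.0 CPM (79.9 to 100.9). The ZNA-PS19 library stood above the other two, whose intervals overlapped. Among the reads outside rRNA, ETn names made up 0.167% (0.139 to 0.198%) of the ZBP1-PS19 library, 0.226% (0.209 to 0.243%) of the ZNA-PS19 library and 0.200% (0.178 to 0.225%) of the ZNA-WT library. On this scale the ZBP1 library was lowest, its interval overlapping that of the ZNA-WT library and not that of the ZNA-PS19 library.

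MMETn-int, the name of the ETn internal part, held the most reads of the family in each library. It had 34 reads in the ZBP1-PS19 library, 222 in the ZNA-PS19 library and 99 in the ZNA-WT library, or 23.9, 76.1 and 30.6 CPM. In RPM outside rRNA its levels were 457 (316 to 638), 719 (628 to 820) and 681 (553 to 829). Both ZNA libraries were thus within each other's interval, and the ZBP1 library lay below them with an interval that touched both.

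ETnERV2-int, an internal name of the ETn-related retroviruses, had 24 reads in the ZBP1-PS19 library, 173 in the ZNA-PS19 library and 61 in the ZNA-WT library, or 16.8, 59.3 and 18.9 CPM. In RPM outside rRNA these were 322 (206 to 479), 561 (480 to 651) and 420 (321 to 539). The ZNA-PS19 library was highest on both scales, and outside rRNA its interval lay just clear of that of the ZBP1 library.

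ETnERV3-int, the least counted internal name, had 11, 84 and 27 reads in the ZBP1-PS19, ZNA-PS19 and ZNA-WT libraries, or 7.72, 28.8 and 8.35 CPM. In RPM outside rRNA its levels were 148 (73.7 to 264), 272 (217 to 337) and 186 (122 to 270). It followed the same order as ETnERV2-int, with overlapping intervals outside rRNA.

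ETnERV-int, the remaining internal name, had 28, 111 and 64 reads in the same order of libraries, or 19.6, 38.0 and 19.8 CPM. In RPM outside rRNA it had 376 (250 to 543), 360 (296 to 433) and 440 (339 to 562). Outside rRNA the ZNA-WT library was thus its highest, unlike in the other 4 names, with all intervals overlapping.

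RLTRETN_Mm, the LTR name, had 27 reads in the ZBP1-PS19 library, 106 in the ZNA-PS19 library and 40 in the ZNA-WT library, or 18.9, 36.3 and 12.4 CPM. In RPM outside rRNA it had 363 (239 to 527), 343 (281 to 415) and 275 (197 to 375). Outside rRNA both PS19 libraries were near each other, and all 3 intervals overlapped.

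**Figure D1:**
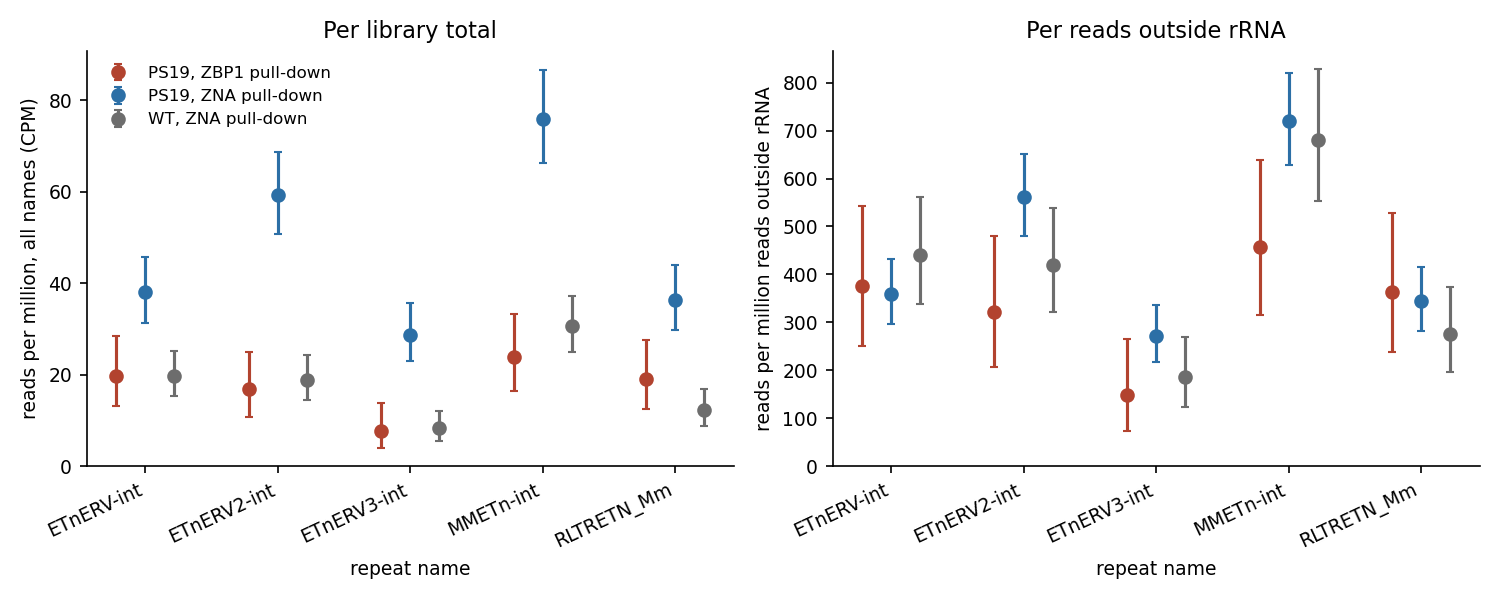
Level of each ETn name in the 3 libraries, as CPM (left) and RPM outside rRNA (right); points are single libraries and bars are 95% exact Poisson intervals. On the left the ZNA-PS19 library is highest for all 5 names; on the right the libraries lie closer together, and the ZBP1-PS19 library is lowest for MMETn-int, ETnERV2-int and ETnERV3-int.

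The first comparison asked how ETn RNA in the ZNA pull-down differed between PS19 and WT hippocampus. Per library total, pooled ETn reads were 2.65-fold higher in the PS19 library (2.31 to 3.05), and the internal names and the LTR name were 2.60-fold (2.24 to 3.03) and 2.94-fold (2.02 to 4.34) higher. Per reads outside rRNA the pooled difference was 1.13-fold (0.981 to 1.30), an interval that includes no change. Leaving out each ETn name in turn, an alternative chosen after seeing the data, gave 1.07-fold to 1.21-fold. Only the pool without ETnERV-int, whose own ratio was 0.817, had an interval that excluded 1 (1.04 to 1.42). In bulk tissue, more or fewer cells carrying an RNA and more or less RNA per cell cannot be told apart. Without an input library, neither can be told apart from a difference in how much of the RNA was recovered.

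By name, 4 of the 5 ETn names were at least 2-fold higher in PS19 per library total on the log2(CPM + 1) scale, and 0 were at least 2-fold lower. Over all 713 names compared, 74.3% passed that limit upwards and 0.421% downwards, so that the count of ETn names lay near the background. ETnERV3-int was 3.45-fold higher (2.21 to 5.53), ETnERV2-int 3.14-fold (2.33 to 4.28) and MMETn-int 2.49-fold (1.95 to 3.18). The name below the limit was ETnERV-int, at 1.92-fold (1.40 to 2.66). The median log2 ratio of the 5 names was 1.48 (range 0.91 to 1.67), against 1.24 over all 713 names.

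Per reads outside rRNA, 0 of the 5 ETn names passed 2-fold in either direction, against 4.64% of 711 names higher and 2.95% lower. The ETn median log2 ratio was 0.32 (range -0.29 to 0.55), against 0.08 over all names, and 4 of the 5 names lay above 0. ETnERV3-int had a ratio of 1.47 (0.940 to 2.35), ETnERV2-int 1.34 (0.992 to 1.82), RLTRETN_Mm 1.25 (0.860 to 1.84) and MMETn-int 1.06 (0.830 to 1.35). ETnERV-int had a ratio of 0.817 (0.595 to 1.13). All 5 intervals included 1.

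Next, RNA recovered with ZBP1 was compared with RNA recovered as ZNA, both from PS19. Pooled ETn reads were 2.74-fold lower in the ZBP1 library per library total (2.26 to 3.35) and 1.35-fold lower per reads outside rRNA (1.12 to 1.65). Pooled internal reads were 1.47-fold lower per reads outside rRNA (1.18 to 1.84), and the ratio of RLTRETN_Mm was 1.06 (0.665 to 1.62). The difference between LTR and internal reads was itself within counting error, as given with the LTR shares.

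Per library total, 3 of the 5 ETn names lay past 2-fold below the ZNA library, namely ETnERV2-int, ETnERV3-int and MMETn-int, and 0 lay past 2-fold above it. The background was 50.1% of 682 names lower and 0.293% higher. The ETn median log2 ratio was -1.63, against -1.002 over all names, and 17.0% of the names lay below the ETn median. Per reads outside rRNA, 0 ETn names passed 2-fold, against 9.41% of 680 names lower and 9.12% higher, and the ETn median was -0.65 against -0.05 over all names.

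Per reads outside rRNA, ETnERV3-int was 1.84-fold lower (0.979 to 3.83), ETnERV2-int 1.74-fold lower (1.13 to 2.79) and MMETn-int 1.58-fold lower (1.09 to 2.33). ETnERV-int and RLTRETN_Mm had ratios near 1, of 1.05 (0.665 to 1.59) and 1.06. The intervals of ETnERV2-int and MMETn-int excluded no change and that of ETnERV3-int, on 11 and 84 reads, did not. Against the other 4 names, the odds ratio of each of the 5 names in this comparison had an interval that included 1, so the names were not shown to differ among themselves.

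**Figure D2:**
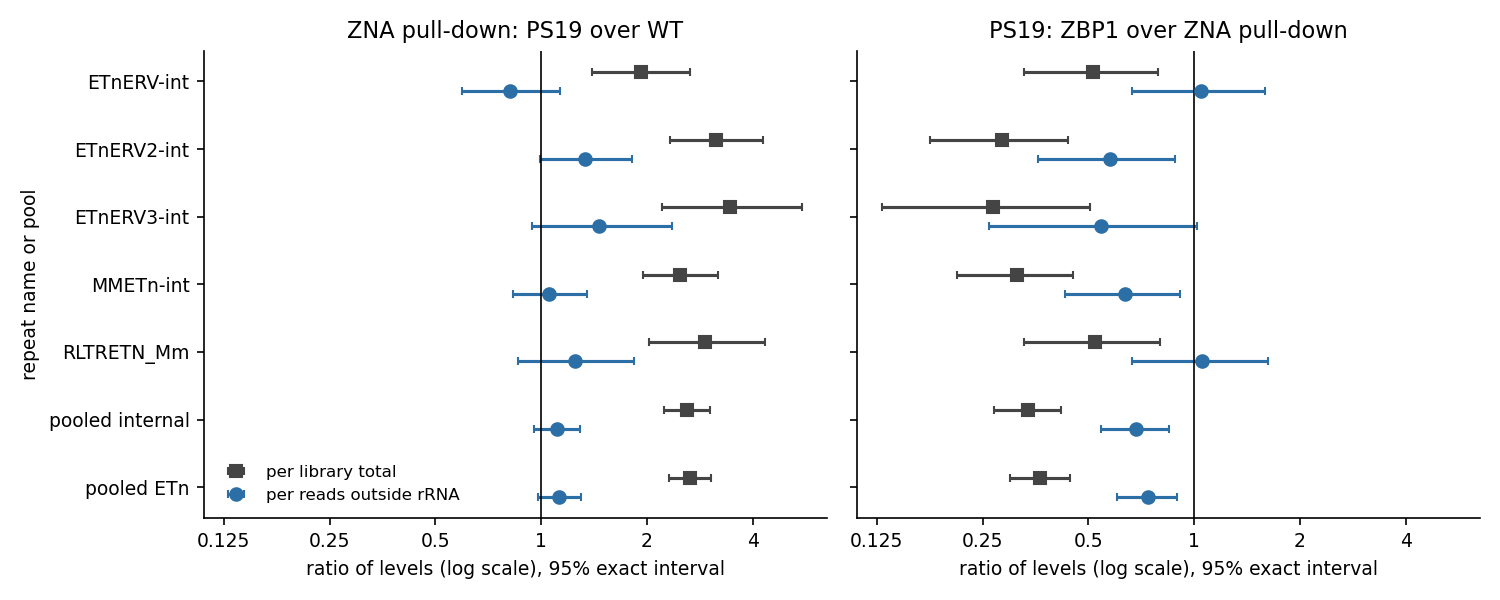
Ratio of levels between libraries for each ETn name, for pooled internal names and for all 5 names, per library total (squares) and per reads outside rRNA (circles), on a log2 axis with 95% exact intervals from counting error. Per library total every ETn name lies above 1 in PS19 over WT and below 1 in ZBP1 over ZNA; per reads outside rRNA pooled internal names keep a ratio of 0.681 in ZBP1 over ZNA.

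Shares within the family do not depend on how the libraries are scaled. ETnERV-int made up 22.6% (15.6 to 31.0%) of the ETn reads in the ZBP1-PS19 library, 15.9% (13.3 to 18.9%) in the ZNA-PS19 library and 21.99% (17.4 to 27.2%) in the ZNA-WT library. Its odds against the other 4 names were 0.673 times as high in the PS19 as in the ZNA-WT library (0.472 to 0.966). Of the 10 such odds ratios, 5 names in 2 comparisons, this was the only interval that excluded 1, and the intervals are not adjusted for their number. ETnERV2-int made up 19.4%, 24.9% and 21.0% of the ETn reads in the same order of libraries, and MMETn-int 27.4%, 31.9% and 34.0%.

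The LTR name was then set against the 4 internal names. RLTRETN_Mm took 27 of 124 ETn reads in the ZBP1-PS19 library, a share of 21.8% (14.9 to 30.1%), 106 of 696 in the ZNA-PS19 library (15.2%, 12.6 to 18.1%) and 40 of 291 in the ZNA-WT library (13.7%, 10.005 to 18.2%). The odds of an LTR read were 1.55 times as high in the ZBP1 as in the ZNA library of PS19 (0.925 to 2.53) and 1.13 times as high in the PS19 as in the ZNA-WT library (0.752 to 1.72). Both intervals include no difference; the first reaches from slightly fewer to 2.53 times the LTR odds, so a shift towards LTR reads was not detectable at this depth. Among other repeats for which the files list both a name and its internal part, 16 pairs could be compared between PS19 and WT and 15 between ZBP1 and ZNA. The median log2 odds ratio of these pairs was -0.01 in the first comparison, with ETn at 0.17 above 13 of 16 pairs. It was -0.27 in the second, with ETn at 0.63 above 11 of 15 pairs. Each pair sets a single name against a single internal name, whereas ETn pools 4 internal names. Some pairs rest on few reads, such as 14 in PS19 and 6 in WT for the internal part of MLT1J. No intervals were given for the pairs, and the rank of ETn among them was not tested.

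**Figure D3:**
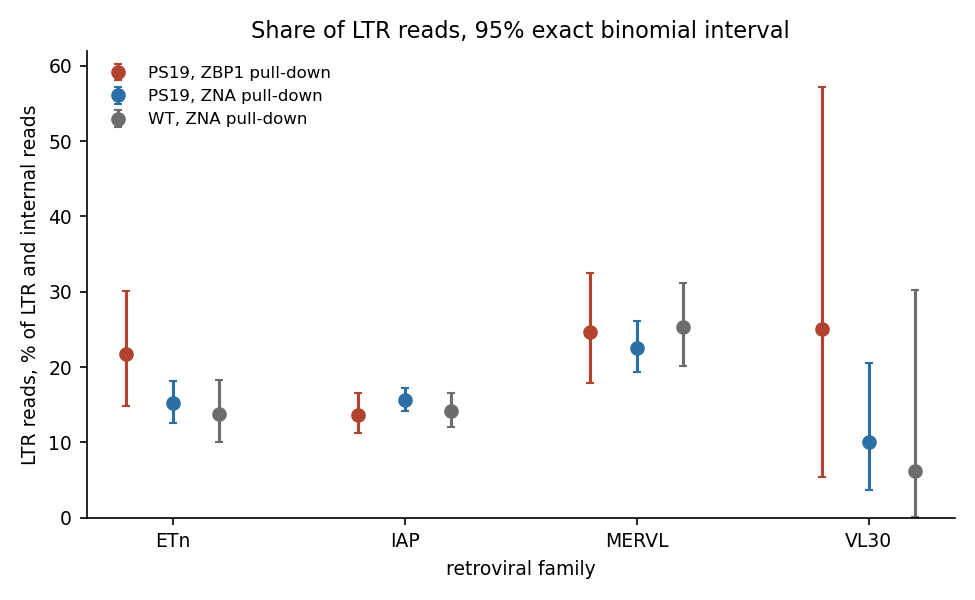
Share of LTR reads among LTR and internal reads of the ETn, IAP, MERVL and VL30 families in each library, with 95% exact binomial intervals. IAP LTR reads are those of names that begin with IAPLTR, so IAPEY2_LTR is not in the IAP share. ETn has 21.8% in the ZBP1-PS19 library and 15.2% and 13.7% in the ZNA libraries with overlapping intervals; VL30 rests on 12, 60 and 16 reads.

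ETn was compared with other mouse retroviral families that are listed with internal and LTR names. IAP (intracisternal A-particle) elements are class II like ETn. The 18 IAP names taken here held 671, 2170 and 994 reads in the ZBP1-PS19, ZNA-PS19 and ZNA-WT libraries. IAPEY2_LTR fell outside the naming rule and was left out, although IAPEY internal names were counted. Per reads outside rRNA its log2 ratio was -0.498 for PS19 over WT and 0.921 for ZBP1 over ZNA. MERVL, a class III element known from the early embryo, was taken as MERVL-int and MT2_Mm and had 146, 606 and 260 reads. MERVL_2A-int, with 348, 1203 and 506 reads, was not counted in it. VL30, a gammaretrovirus-like element taken as MMVL30-int and RLTR6_Mm, had 12, 60 and 16. The MuLV pair, taken as MuLV-int and RLTR4_Mm, could not be compared, because MuLV-int had 0 reads in every library. For that name, 0 reads allow up to 2.10, 1.03 and 0.927 CPM when 3 reads are taken as the upper limit. This approximate limit is lower than that of the exact Poisson intervals used for levels. The 0 reads do not show that MuLV RNA was absent. RLTR4_MM-int, an internal name with the same stem as RLTR4_Mm, was outside the pair and had 302, 1744 and 608 reads. Its ratio outside rRNA was 0.718 (0.633 to 0.811) for ZBP1 over ZNA and 1.35 (1.23 to 1.48) for PS19 over WT.

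Between the ZBP1 and ZNA pull-downs of PS19, ETn and IAP reads were both lower with ZBP1 per library total, ETn 2.74-fold and IAP 1.58-fold (1.45 to 1.72). Per reads outside rRNA, IAP reads had a ratio of 1.28 (1.17 to 1.40), against the pooled ETn ratio of 0.738 (0.605 to 0.895). The odds of an ETn against an IAP read were 0.576 times as high in the ZBP1 library (0.463 to 0.713). The name IAPEz-int held 473 of the 671 and 1380 of the 2170 IAP reads; without it the other 17 IAP names had a ratio of 1.04 (0.884 to 1.22), which includes no change, and the odds ratio of ETn was 0.711 (0.551 to 0.916). Against MERVL the odds ratio of ETn was 0.740 (0.563 to 0.970), and against VL30 it was 0.891 (0.458 to 1.87), which includes no difference. The share of ETn reads relative to IAP and to MERVL was thus lower with ZBP1 beyond counting error in these 2 libraries. These are 2 of 6 such odds ratios, 3 families in 2 comparisons, with intervals not adjusted for their number.

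Between the ZNA-PS19 and ZNA-WT libraries, ETn did not stand apart from these families. The odds ratio of ETn was 1.10 against IAP (0.935 to 1.29), 1.03 against MERVL (0.836 to 1.26) and 0.638 against VL30 (0.337 to 1.14). Per reads outside rRNA, the families' own ratios were 1.13 for ETn, 1.03 for IAP, 1.10 for MERVL and 1.77 for VL30 (1.004 to 3.29).

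Names with the most similar pattern were sought among 460 other names averaging 10 CPM or more in the 3 libraries, by the distance between their pairs of log2 ratios per reads outside rRNA. Both ratios share the ZNA-PS19 library. Pooled ETn internal reads had log2 ratios of 0.15 (PS19 over WT) and -0.55 (ZBP1 over ZNA), and the nearest names were BGLII, RLTR20A3_MM and L1MD3, at distances of 0.021 to 0.036. RLTRETN_Mm had 0.32 and 0.08, and the nearest were MMERVK9C_I, MER3 and ORR1A1, at distances of 0.010 to 0.031. These distances are smaller than the counting error of the ETn ratios, so the order among near names carries no weight.

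**Figure D4:**
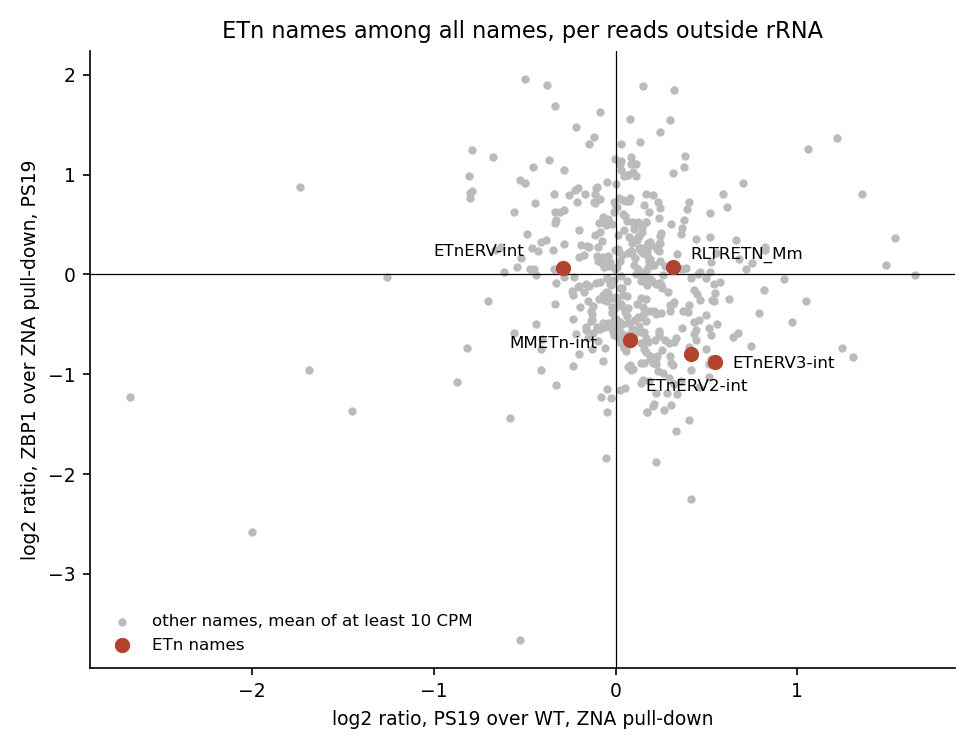
Each point is a repeat name placed by its log2 ratio of PS19 over WT in the ZNA pull-down (horizontal) and of ZBP1 over ZNA in PS19 (vertical), per reads outside rRNA; grey points are 460 other names and red points the 5 ETn names. ETnERV2-int, ETnERV3-int and MMETn-int lie together below 0 on the vertical axis, and ETnERV-int and RLTRETN_Mm lie near 0.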

How the data were processed

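RNA was measured in 3 hippocampal pull-down libraries, 1 per group, grouped by their titles. The authors deposited raw read counts, 1 file a library, listed by repeat name; the submitters' processing notes name Trim Galore 0.6.5, STAR 2.5.3a, featureCounts 2.0.4 and build mm39. The repeat annotation, strand setting and handling of multi-mapping reads are not given in the sources used here. Such reads can move between the closely related ETn names, so single names are less certain than their sum.

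From the counts, CPM of the library total and RPM outside LSU-rRNA_Hsa and SSU-rRNA_Hsa were computed. Ratios of levels have exact conditional (Clopper-Pearson) intervals, levels exact Poisson intervals, shares exact binomial intervals and odds ratios exact conditional intervals, all at 95%. Names averaging 1 CPM or more, with 20 or more reads over the 2 libraries compared were counted as higher or lower past 2-fold on the log2(CPM + 1) scale. With 1 library per group the quasi-likelihood test of edgeR cannot be fitted, so p-values are left out. Code was tested on simulated data.

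All names of the ETn rule are reported. The 3 names nearest in pattern to internal and to LTR reads were also named. IAP internal names end in -int or _I, and IAP LTR names begin with IAPLTR; IAP names outside these patterns were left out. The members and lists were chosen with earlier results of these data known. Alternatives were pseudocounts of 0.1 and 5, scaling to reads outside rRNA, TMM, limits of 1.5-fold and 4-fold, a 10 CPM filter, no filter, and other sets of internal names. Intervals came from scipy 1.17.1 under Python 3.11.15, and TMM factors from edgeR 4.0.16 under R 4.3.3.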

Additional observations from a re-analysis of the deposited data

How the results depend on the processing

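Scaling moved the ETn results most, because rRNA sets the library total. The pooled log2 ratio of PS19 over WT (1.40 per library total) was 0.17 per reads outside rRNA and 0.11 under TMM; that of ZBP1 over ZNA (-1.44) was -0.44 and -0.59. Under either scaling 0 names stayed 2-fold higher in PS19 or 2-fold lower in ZBP1. ETnERV-int changed sign in PS19 over WT (-0.29 outside rRNA, -0.34 under TMM) and, outside rRNA, in ZBP1 over ZNA (0.064), as did RLTRETN_Mm (0.078). At 4-fold 0 names passed in either comparison, and at 1.5-fold 5 names were lower in ZBP1. The other pseudocounts and filters kept these counts within 1.5 times. The odds ratio of LTR against internal reads stayed between 1.09 and 1.18 for PS19 over WT and between 1.49 and 1.66 for ZBP1 over ZNA with other sets of internal names. Leaving out each ETn name in turn, an alternative chosen after seeing the data like the IAP set without IAPEz-int, kept the pooled ZBP1 over ZNA ratio outside rRNA between 0.680 and 0.792, each interval below 1. For PS19 over WT it gave 1.07 to 1.21, and without ETnERV-int the interval (1.04 to 1.42) excluded 1. No paired analysis was possible because each group has 1 library, which also left no replicate to leave out. The shallowest library is that of ZBP1, with 0.702 CPM a read.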

Other observations

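The ETn internal reads were also placed among the internal names of other retrovirus-like repeats. These were all 45 other names that end in -int, _I or -I_MM and average 10 CPM or more, LINE-1 names left out; the set was chosen after values were seen, and no test was made. For ZBP1 over ZNA in PS19, per reads outside rRNA, their ratios ran from 0.209 for MurERV4_19-int to 1.999 for ORR1B1-int, with a median of 0.972. Of the 45 names, 9 lay below the 0.681 of pooled ETn internal reads, so a lower level with ZBP1 is not particular to ETn. Examples are MYSERV16_I at 0.402 (0.265 to 0.589), RLTR45-int at 0.434 (0.192 to 0.862) and MYSERV-int at 0.476 (0.344 to 0.645), while MMERVK10C-int had 0.909 (0.704 to 1.16). For PS19 over WT in the ZNA pull-down, 15 of the 45 names lay below the 1.11 of pooled ETn internal reads, and the median was 1.14.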
